A study of Mus musculus with 6 samples.

Results

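The genes described here are the matrix metalloproteases (MMPs), the ADAMTS proteases with their ADAMTS-like relatives, and the tissue inhibitors of metalloproteases (TIMPs) of mouse cochlear explants. They were taken by symbol, as every row of the count table that begins with Mmp and a digit, begins with Adamts, or is Timp1 to Timp4. This gave 51 genes of the 24421 symbols in the table, made up of 23 MMPs, 19 ADAMTS proteases, 5 ADAMTS-like genes and 4 TIMPs. The rule itself used no measured value, but it was set with earlier results of these data known.

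Total RNA was measured by RNA-seq in 3 control and 3 neomycin samples of cochlear explants, which are organs of Corti with neighbouring tissue kept in a dish. All 6 samples came from wild-type (WT) mice at postnatal day 2, and each was a pool of 6 to 8 cochleae. Explants were held for 12 h, the neomycin group then received 1 mM neomycin, an aminoglycoside antibiotic that is toxic to hair cells (HCs), for 6 h, and culture went on for 5 days with the DNA label EdU at 10 μM. The labels repeat the neomycin step for all 6 samples, so the control group was taken as untreated from its treatment label alone. The methods state that the stria anlage, the modiolus and the tectorial membrane were removed in dissection, and the strain is not given in the sources used here. The labels do not say whether pools came from separate litters or culture days, so p-values measure only the spread between these samples, which may be technical.

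As background, MMPs are zinc-dependent enzymes that cut collagens, laminins, growth factors and other proteins outside the cell or at its surface. ADAMTS proteases are secreted relatives whose thrombospondin repeats hold them in the matrix, where some cut proteoglycans such as versican and aggrecan and others trim procollagens. TIMPs bind the active site of the enzymes and block it, and TIMP3 differs from the other TIMPs in staying bound to the matrix and in blocking ADAMTS proteases well. In the inner ear these proteins act on the matrix around the sensory epithelium, on basement membranes and on blood vessels.

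Total counts ran from 50471116 to 66068108 per sample. The tissue label was checked on marker genes. All 18 HC markers were expressed above the filter, and 16 of them were called lower after neomycin, with a summed level of 840 to 962 CPM (reads after scaling each library to one size) in control and 259 to 322 CPM in neomycin samples. Supporting cell, mesenchyme, endothelium, pericyte, macrophage, Schwann cell, neuron and cartilage markers were present too, so each sample was a mixture of cell types. In such bulk samples fewer cells of a type and less RNA per cell cannot be told apart.

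Of the 51 genes, 42 had enough counts to be tested. A gene was called at an adjusted p under 0.05 in edgeR's quasi-likelihood test, adjusted over the 15988 genes tested, together with a fold change over 1.5. By this rule 6 members fell (Mmp24, Mmp3, Adamts6, Adamts4, Adamts15 and Mmp28) and 1 rose (Mmp12). That was 16.7% of the tested members, where 8.84% of all tested genes were called. In the lower direction it was 14.3% of members against 6.60% of all genes, and in the higher direction 2.38% against 2.24%. With the adjusted p alone, 13 members passed, 10 lower and 3 higher, and their share of 31.0% was near the 29.0% of all genes. The 2 groups did not overlap in 17 members, which was 40.5% against 43.5% of all genes. In 12 of the 17 the neomycin samples lay below (28.6% of members, 22.5% of all genes) and in 5 above (11.9% of members, 21.0% of all genes). The median log2 fold change, neomycin over control, was -0.12 over the tested members and -0.0041 over all tested genes, and 25 members lay below 0 and 17 above. The count of 7 depended on single libraries. It was 4 without control 2 and 5 without control 1, without neomycin 2 or without neomycin 3. The share of all genes called was lower in these fits too. It was 6.41% without control 2, 7.14% without control 1, 7.0% without neomycin 2 and 7.44% without neomycin 3.

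**Figure D1:**
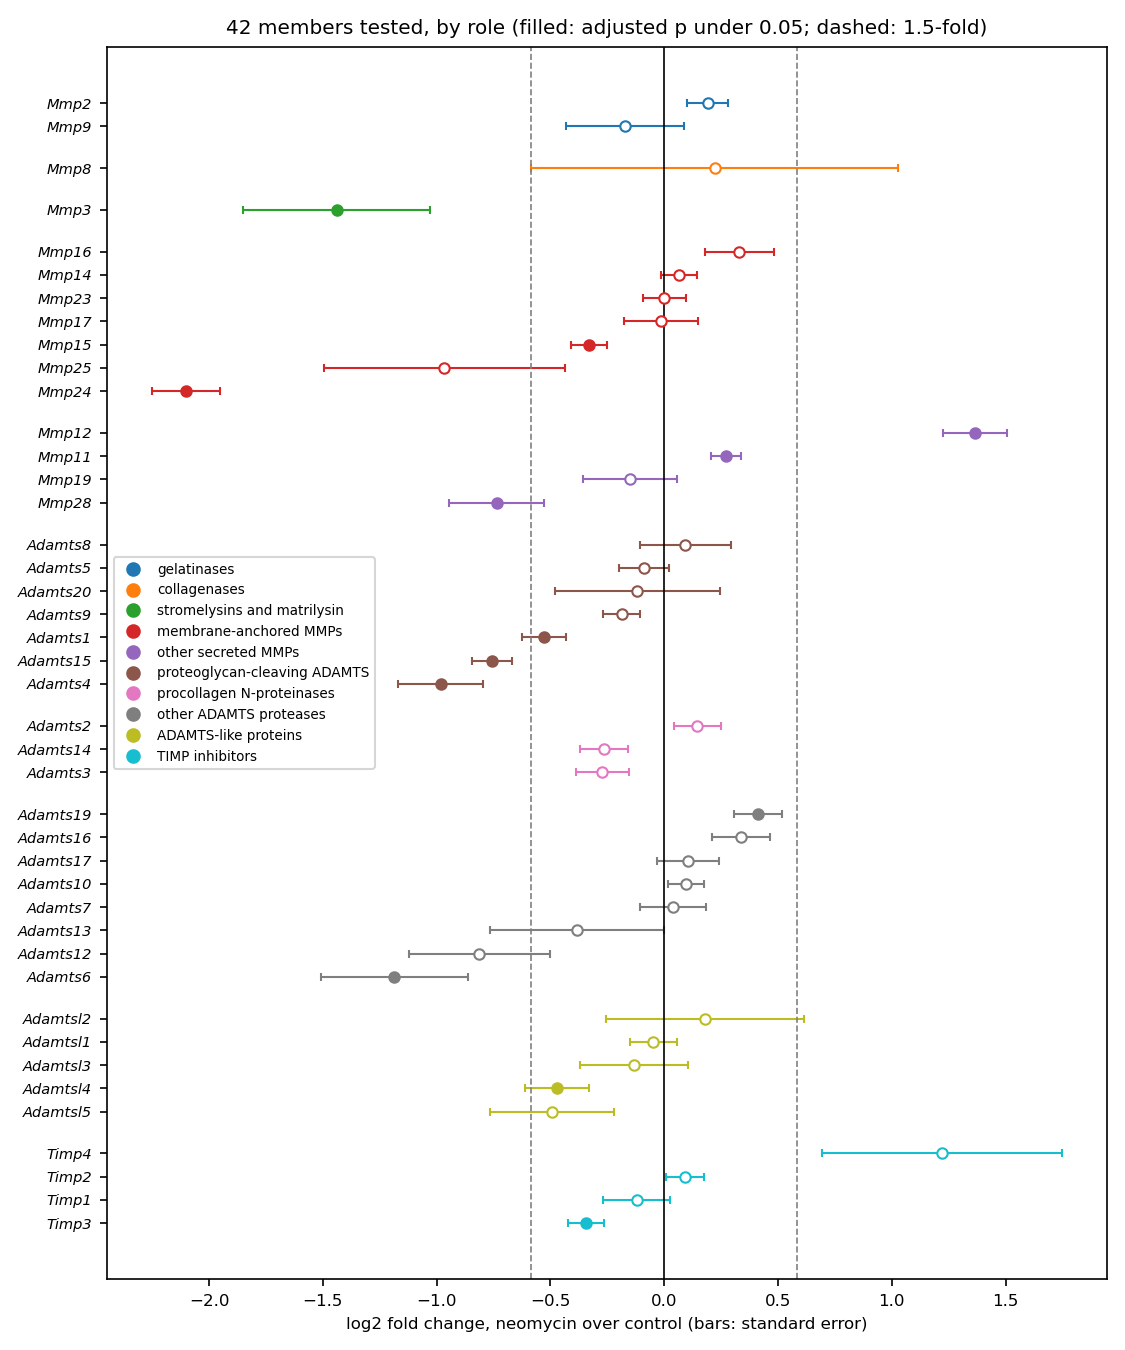
Log2 fold change of neomycin over control (horizontal axis) for the 42 tested members, grouped and coloured by role, with bars of 1 standard error, filled points at an adjusted p under 0.05 and dashed lines at 1.5-fold. Mmp24 lies farthest to the left at -2.10, Mmp12 is the only filled point right of the 1.5-fold line at 1.36, and most other points lie between the dashed lines.

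The highest levels belonged to enzymes and inhibitors that changed by less than 1.5-fold, of which only Timp3, lower, passed the adjusted p. Per kb of exon, the mean level over all 6 samples was 186 CPM for Mmp2, 96.8 for Timp2, 90.1 for Mmp14, 66.5 for Timp3 and 48.1 for Timp1. The called members stood far below these, from 0.229 CPM per kb for Adamts6 to 6.72 for Adamts15.

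Among the gelatinases, Mmp2, which cuts denatured collagen and type IV collagen, measured 646, 537 and 572 CPM in control 1, 2 and 3 and 670, 690 and 644 CPM in neomycin 1, 2 and 3. Control 1 reached the lowest neomycin sample, so the groups overlapped. The log2 fold change was 0.19 (SE 0.09, adjusted p = 0.125), and without control 1 it was 0.27 (adjusted p = 0.0490, in a range from 0.0486 to 0.375 over all fits). Mmp9, the gelatinase of leukocytes and of invading cells, lay between 2.32 and 4.22 CPM over all samples and differed by -0.17 on the log2 scale (adjusted p = 0.649).

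The membrane-anchored MMPs were led in level by Mmp14 and in change by Mmp24. Mmp14, a collagenase of the cell surface that activates pro-MMP2 together with TIMP2, measured 556, 493 and 524 CPM in control and 538, 559 and 550 CPM in neomycin samples. The groups overlapped, and the log2 fold change was 0.07 (SE 0.08, adjusted p = 0.565), with a value of -0.0032 when libraries were scaled by total counts.

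Mmp24, known also as MT5-MMP and best known from neurons, where it cuts N-cadherin, was at 14.9, 12.5 and 14.6 CPM in control and 3.92, 3.07 and 2.83 CPM in neomycin samples. Every neomycin sample lay far below every control sample. The mean fell from 14.0 ± 1.30 to 3.27 ± 0.571 CPM (SD, n = 3 each), a 4.29-fold lower level with a log2 fold change of -2.10 (SE 0.15, adjusted p = 2.11e-06). This was the largest change among the tested members, and it stayed called in all 16 other fits. The gene lies at chr2:155775342-155818366 of mm10 on the plus strand. BC029722, on the opposite strand, shares 637 exon bases with it and was named after its values were seen. BC029722 held 1058 to 1333 counts in control and 1249 to 1374 in neomycin samples, a log2 difference of 0.28 (adjusted p = 0.0241) in the opposite direction. The summed HC markers fell over the same samples, and so did 4 of 10 neuron markers (median log2 fold change -0.74, summed level 199 to 288 CPM in control and 186 to 204 CPM after neomycin). Their part in the Mmp24 result was not tested.

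Mmp15, also named MT2-MMP, fell by a smaller step, from 196, 178 and 176 CPM to 153, 133 and 151 CPM with no overlap. Its log2 fold change was -0.33 (SE 0.08, adjusted p = 0.00914), under the 1.5-fold threshold, and without neomycin 2 the adjusted p was 0.0696, the highest of all fits (lowest 0.00107). The other membrane-anchored members, Mmp16, Mmp17, Mmp23 and Mmp25, did not pass the test. Mmp16 was higher in every neomycin sample (6.59 to 6.70 CPM) than in any control sample (4.75 to 6.27 CPM), at an adjusted p of 0.121. After a correction for gene length Mmp16 passed (log2 fold change 0.49, adjusted p = 0.0260).

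Of the other secreted MMPs, Mmp12 rose. Mmp12, the elastase of macrophages, measured 3.71, 4.08 and 3.26 CPM in control and 9.19, 9.63 and 9.63 CPM in neomycin samples. The groups were well apart, and the spread within each was small. The mean was 3.68 ± 0.414 CPM in control and 9.48 ± 0.252 CPM in neomycin samples (SD, n = 3 each), 2.57-fold higher with a log2 fold change of 1.36 (SE 0.14, adjusted p = 3.92e-05), and the call held in all 16 other fits. Mmp12 lies at chr9:7344381-7369499 on the plus strand, where it shares 157 exon bases with Mmp1b on the opposite strand, a gene with 0 or 1 count in every sample.

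Of the 10 macrophage markers 9 had a log2 fold change above 0, 5 passed the adjusted p, all higher, and in 5 every neomycin sample lay above every control sample. Over the 10 markers the summed level was 90.3 to 119 CPM in control and 128 to 158 CPM in neomycin samples, and the median log2 fold change was 0.53. Cd68, C1qa, C1qc and Mrc1 were called higher, none was called lower, and no marker was at or under 3 counts in every sample. The 1 marker below 0 was Csf1r, the receptor that macrophages need to live, at 6.68 ± 0.473 CPM in control and 6.45 ± 0.227 CPM in neomycin samples (SD, n = 3 each; log2 fold change -0.05, adjusted p = 0.799). The log2 fold change was 1.36 for Mmp12 and between 0.59 and 0.63 for the 4 called markers. The highest of the 10 markers stood at 0.76 and was not called. The part of macrophages in the Mmp12 result was not tested.

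Mmp28, also named epilysin and made by epithelia, fell from 7.38, 7.44 and 5.71 CPM to 5.55, 3.19 and 3.59 CPM. The highest neomycin sample came close to the lowest control sample without reaching it. Mmp28 differed by a log2 fold change of -0.74 (SE 0.21, adjusted p = 0.0196), a 1.67-fold lower level. The call was lost without control 1 (adjusted p = 0.0518), control 2 (0.0829), neomycin 2 (0.0931) or neomycin 3 (0.0674). Mmp28 (chr11:83440768-83463071, minus strand) overlaps 1700020L24Rik on the other strand, which did not pass the test (log2 fold change 0.07, adjusted p = 0.730).

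Mmp11, or stromelysin-3, a stromal enzyme, rose slightly, from 62.7, 60.6 and 62.3 CPM to 74.6, 76.6 and 72.6 CPM. The groups were tight and did not overlap. The log2 fold change was 0.27 (SE 0.07, adjusted p = 0.00929). Chchd10, which shares 155 exon bases with it on the other strand, stood at 0.09 (adjusted p = 0.589). Without neomycin 2 the adjusted p was 0.0599, and after a correction for gene length the log2 fold change was 0.17 (adjusted p = 0.0596), and over all fits the adjusted p ranged from 0.00211 to 0.0599.

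Among the stromelysins only Mmp3 had enough counts. Mmp3, an enzyme with many matrix substrates that also activates other MMPs, was at 1.65, 4.03 and 4.54 CPM in control and 1.02, 0.712 and 2.03 CPM in neomycin samples. Control 1 lay below neomycin 3, so the groups overlapped although the gene was called. The log2 fold change was -1.44 (SE 0.41, adjusted p = 0.0215), a 2.71-fold lower level. The call was lost without control 2 (adjusted p = 0.0889), control 3 (0.0708) or neomycin 2 (0.0923). Of the collagenases only Mmp8, the collagenase of neutrophils, was tested, with 3 to 31 counts per sample and an adjusted p of 0.862.

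Mmp3 and Mmp12, which moved in opposite directions, lie in a cluster of MMP genes on chromosome 9. The cluster holds 10 members (Mmp13, Mmp12, Mmp1b, Mmp3, Mmp1a, Mmp10, Mmp8, Mmp27, Mmp20 and Mmp7) in 427 kb, chr9:7272514-7699585 of mm10. Only Mmp12, Mmp3 and Mmp8 had enough counts to be tested, and no sample held more than 23 counts of any of the other 7. Genes of this cluster are known for a binding site of AP-1, the Fos and Jun dimer, close before the start site. The letters TGACTCA or TGAGTCA, each the reverse complement of the other, were searched in the RefSeq promoter windows (build GRCm38.p6), from 250 bases before to 50 after the start.

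The letters were found in 7 of the 10 cluster genes (70.0%), in 0 of the 26 members outside the cluster that had a window, and in 1607 of 27025 genes with a window (5.95%). The stretches around them are printed because the called Mmp3 and Mmp12 both have the letters at about the same distance from their starts, 46 and 44 bases before. They stand 35 bases before the start in Mmp13, 93 in Mmp1b, 73 in Mmp1a, and 63 in both Mmp10 and Mmp7. Each is given 5′ to 3′ on the strand of its gene, with the 7 searched letters in capitals.
Mmp3 (chr9:7445751-7445807, plus strand): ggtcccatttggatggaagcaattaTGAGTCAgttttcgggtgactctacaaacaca
Mmp12 (chr9:7347305-7347361, plus strand): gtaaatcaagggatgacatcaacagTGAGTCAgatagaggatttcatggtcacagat
Mmp10 (chr9:7502254-7502310, plus strand): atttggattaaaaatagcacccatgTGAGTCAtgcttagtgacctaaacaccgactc
Mmp13 (chr9:7272454-7272510, plus strand): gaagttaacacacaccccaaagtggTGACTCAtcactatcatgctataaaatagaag
Mmp1a (chr9:7464043-7464099, plus strand): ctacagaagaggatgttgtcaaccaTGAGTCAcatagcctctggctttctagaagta
Mmp1b (chr9:7388088-7388144, minus strand): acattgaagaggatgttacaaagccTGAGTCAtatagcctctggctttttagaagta
Mmp7 (chr9:7692002-7692058, plus strand): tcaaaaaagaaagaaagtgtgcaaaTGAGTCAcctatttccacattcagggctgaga

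Mmp1a and Mmp1b, copies of one ancestral collagenase gene, share 23 of the 25 bases after the capitals. Mmp12 has 2 listed start sites, and the letters lie only before the downstream one. Cluster genes arose by duplication, so their matches are not independent of each other. A match is a string of letters and no measured site. Of the genes that carry it only Mmp3, lower, and Mmp12, higher, could be tested, and the rest were too low. A part of AP-1 in these changes was not tested.

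Among the ADAMTS proteases that cut proteoglycans, 6 of 7 had a log2 fold change below 0, and 3 passed the adjusted p, all lower, which was 42.9% where 29.0% of all tested genes passed in either direction and 16.1% lower. By the full rule 2 of the 7 (28.6%) were called lower, against 6.60% of all genes, and with 7 genes such shares move far with 1 gene. The median over the 7 was -0.19. Adamts4, or aggrecanase-1, was at 8.69, 11.4 and 7.26 CPM in control and 3.75, 5.29 and 4.78 CPM in neomycin samples. Every neomycin sample was below every control sample. The mean went from 9.12 ± 2.11 to 4.61 ± 0.786 CPM (SD, n = 3 each), with a log2 fold change of -0.98 (SE 0.19, adjusted p = 0.00258), and the call held in all 16 other fits. The gene lies at chr1:171250421-171260637 on the plus strand.

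Adamts15, a versican- and aggrecan-cutting enzyme, had the highest level of the called members. It measured 91.1, 87.2 and 84.2 CPM in control and 59.3, 49.1 and 47.0 CPM in neomycin samples. The lowest control sample stood well above the highest neomycin sample. The mean fell from 87.5 ± 3.47 to 51.8 ± 6.59 CPM (SD, n = 3 each), with a log2 fold change of -0.76 (SE 0.09, adjusted p = 0.000121). With the correction for gene length the log2 fold change was -0.57 (adjusted p = 0.000163), just under the fold threshold, and the adjusted p ranged from 2.14e-12 to 0.00198 over all fits. The gene lies at chr9:30899155-30922452 on the minus strand.

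Adamts1, which cuts versican and aggrecan, also fell, from 55.0, 66.1 and 52.9 CPM to 37.9, 44.5 and 38.1 CPM, with no overlap. Its log2 fold change of -0.53 (SE 0.10, adjusted p = 0.00222) was under the fold threshold. Adamts5, Adamts8, Adamts9 and Adamts20, of the same group, did not pass the test, with Adamts9 at -0.19 (adjusted p = 0.106) and Adamts20 at -0.12 (adjusted p = 0.833). Adamts5, or aggrecanase-2, stood at a log2 difference of -0.09 (adjusted p = 0.579), and Adamts8 one of 0.09 (adjusted p = 0.760).

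Adamts15 and Adamts1 each have a close relative nearby on the chromosome. The log2 ratio of Adamts15 to Adamts8, 20.1 kb away, was 4.87 ± 0.12 in control and 4.03 ± 0.31 in neomycin samples (SD, n = 3 each). The log2 ratio of Adamts1 to Adamts5, 53.1 kb away, was 1.18 ± 0.10 and 0.73 ± 0.15. These pairs and that of Timp3 with Timp2 were chosen after values were seen. For each of the 3 ratios the groups did not overlap, and the exact two-sided permutation test gave p = 0.1 (0.1 after Benjamini-Hochberg adjustment over the 3), the smallest that 3 against 3 samples can give, so an unequal change within a pair was not shown.

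Of the other ADAMTS proteases, Adamts6, which acts on microfibrils and is needed for heart development, was the only one called. It was low, at 2.77, 2.53 and 2.15 CPM in control and 1.68, 0.661 and 0.949 CPM in neomycin samples, without overlap. Its log2 fold change was -1.19 (SE 0.32, adjusted p = 0.0172), a 2.27-fold lower level. The call was lost without control 1 (adjusted p = 0.0510), control 2 (0.0604), neomycin 2 (0.0709) or neomycin 3 (0.0542). The gene lies at chr13:104287835-104496695 on the plus strand.

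Adamts19, a gene of heart valves, rose from 18.4, 15.8 and 14.7 CPM to 23.2, 21.7 and 20.3 CPM. The groups did not overlap. The log2 fold change was 0.41 (SE 0.11, adjusted p = 0.0124) and was 0.65 (adjusted p = 0.000211) with the correction for gene length, past the fold threshold, while without control 2 the adjusted p was 0.0508, and these were the lowest and highest values of all fits. Adamts12, named after its values were seen, varied widely between its control samples, at 12.0, 8.36 and 4.07 CPM against 5.35, 5.36 and 3.24 CPM. Its log2 fold change of -0.81 (SE 0.31) did not pass (adjusted p = 0.0676), and without control 3 it was called (adjusted p = 0.00352, in a range up to 0.314 without control 1).

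The procollagen N-proteinases, which trim the amino ends of fibrillar procollagens, had no member past the test in the main fit. Adamts2, the main enzyme of the group, was the most abundant ADAMTS gene at 22.6 CPM per kb, with 177 to 226 CPM in control and 200 to 252 CPM in neomycin samples. Its log2 fold change was 0.15 (SE 0.10, adjusted p = 0.320). Adamts3 and Adamts14 were both at -0.27, with adjusted p of 0.102 and 0.0745.

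**Figure D2:**
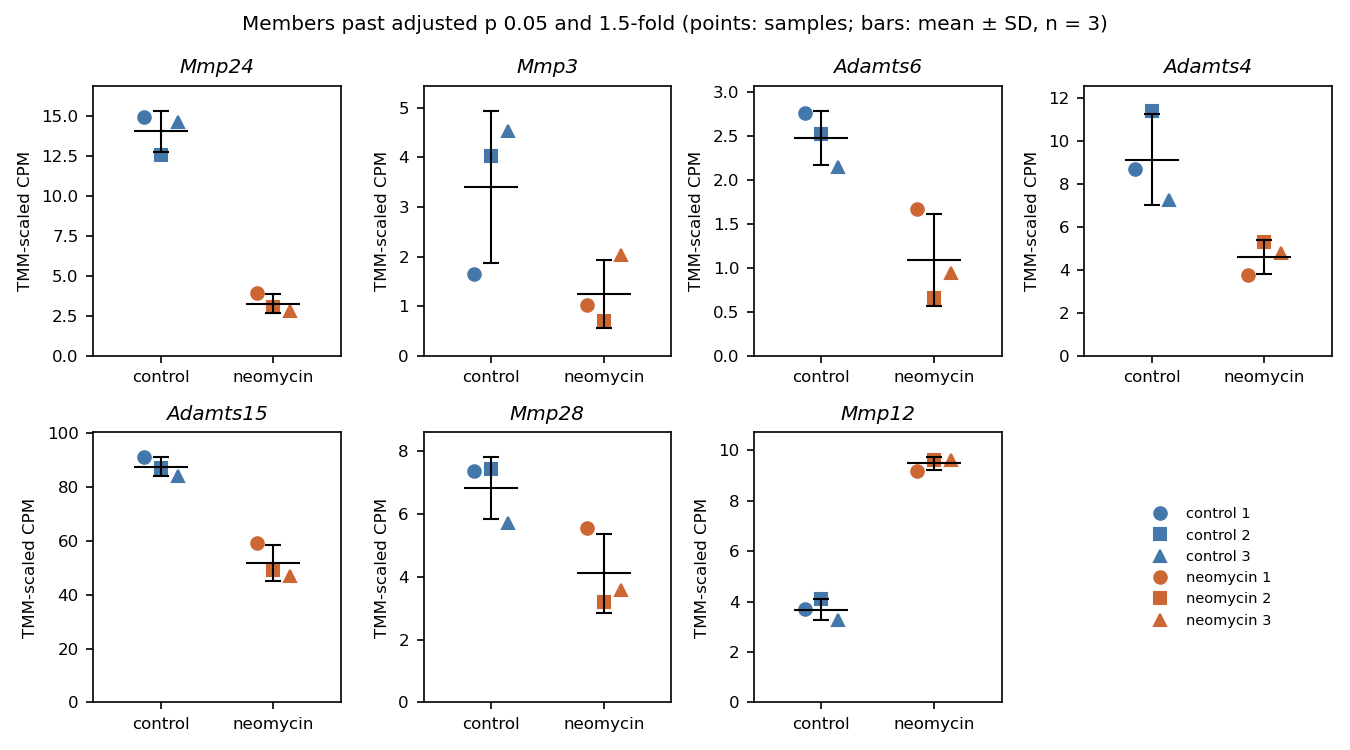
CPM in each sample of the 7 called members, with a panel and a vertical axis from 0 for each gene, points for samples, and a line and bar for the mean and SD of 3 samples. Neomycin points lie below all control points in Mmp24, Adamts6, Adamts4, Adamts15 and Mmp28 and above them in Mmp12, while the groups overlap in Mmp3.

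ADAMTS-like proteins have the repeats of the family without a protease domain, and some bind fibrillin microfibrils. None of the 5 was called. Adamtsl4, a microfibril protein of the eye's suspensory ligament, fell from 8.64, 7.19 and 7.28 CPM to 5.93, 5.64 and 5.12 CPM without overlap (log2 fold change -0.47, SE 0.14, adjusted p = 0.0251). The adjusted p was 0.106 without control 1, 0.0514 without control 2, 0.0742 without neomycin 2 and 0.0901 without neomycin 3. The other 4 lay between -0.49 (Adamtsl5) and 0.18 (Adamtsl2), and none passed.

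Of the inhibitors, Timp3 fell and the other 3 did not pass the test. Timp3, the matrix-bound TIMP, measured 615, 637 and 566 CPM in control and 484, 486 and 464 CPM in neomycin samples. All neomycin samples were below all control samples, and they were close to each other. The mean went from 606 ± 35.9 to 478 ± 12.3 CPM (SD, n = 3 each), with a log2 fold change of -0.34 (SE 0.08, adjusted p = 0.00795), under the fold threshold. Without control 2 the adjusted p was 0.05003, just past the threshold, and the adjusted p ranged from 5.75e-05 to 0.05003 over all fits. With the correction for gene length the log2 fold change was smaller, at -0.20 (adjusted p = 0.0397). Timp3 (chr10:86300372-86349506, plus strand) shares 1733 exon bases with Syn3 of the other strand, which had 363 to 879 counts and differed by -0.43 on the log2 scale (adjusted p = 0.0993).

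Timp2, the partner of MMP14 in the activation of pro-MMP2, measured 389, 362 and 345 CPM in control and 422, 368 and 377 CPM in neomycin samples. The groups overlapped (log2 fold change 0.09, SE 0.08, adjusted p = 0.448). Timp1, a secreted inhibitor that many tissues raise on injury, was at 37.7, 54.3 and 41.6 CPM and at 33.8, 38.7 and 50.2 CPM, again with overlap (log2 fold change -0.12, SE 0.15, adjusted p = 0.570). With the correction for gene length Timp1 was at -0.48 (adjusted p = 0.0161, in a range from 0.0154 to 0.998 over all fits), and without control 2 at 0.05. Timp4 was barely detected, with 15, 6 and 8 counts in control and 13, 28 and 22 counts in neomycin samples (log2 fold change 1.22, SE 0.53, adjusted p = 0.0999). It shares 90 exon bases with Syn2 on the other strand, which was lower after neomycin (-0.83 on the log2 scale, adjusted p = 0.0488).

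The make-up of the inhibitor and enzyme pools was set by few genes. Per kb of exon, Mmp2 and Mmp14 made up 78.5%, 76.3% and 77.4% of all MMP signal in control 1, 2 and 3 and 80.4%, 81.5% and 79.7% in neomycin 1, 2 and 3. Timp3 made up 34.7%, 33.7% and 33.9% of TIMP signal in control and 28.9%, 30.1% and 27.1% in neomycin samples. The share of Timp3 was lower in every neomycin sample than in any control sample. The share of Timp2 was higher in each, at 40.0% to 45.8% in control and 46.0% to 52.6% in neomycin samples. The log2 ratio of Timp3 to Timp2 was 0.73 ± 0.08 in control and 0.30 ± 0.10 in neomycin samples (SD, n = 3 each), on CPM without the length scale. These shares and this ratio, like the sums below, did not use the correction for gene length. With that correction the log2 fold change was -0.20 for Timp3, 0.07 for Timp2 and -0.48 for Timp1.

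The summed MMP level was 363, 317 and 333 CPM per kb in control and 359, 367 and 356 CPM per kb in neomycin samples, and control 1 lay inside the neomycin range. The summed TIMP level was 218, 232 and 205 CPM per kb and 206, 198 and 210 CPM per kb, again with overlap. The MMP sum over the TIMP sum was 1.66, 1.37 and 1.62 in control and 1.75, 1.85 and 1.69 in neomycin samples. The groups were separated by the narrow step from 1.66 to 1.69. These sums are given as a description without a test, and RNA levels do not measure active enzyme.

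**Figure D3:**
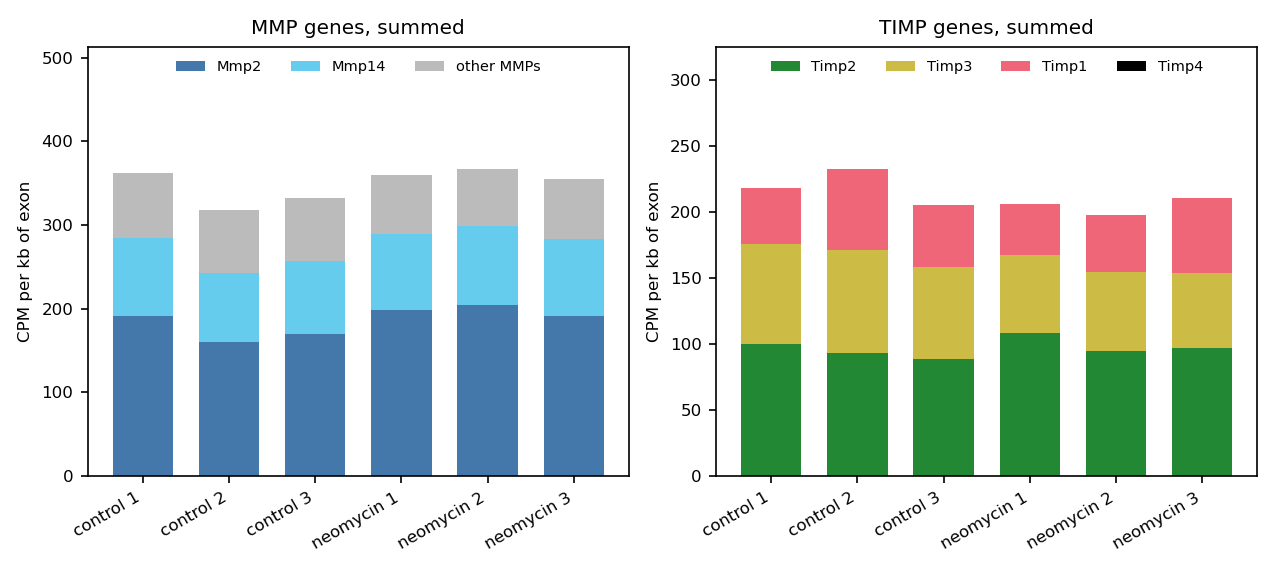
Summed level in CPM per kb of exon (vertical axis, from 0) of the MMP genes (left) and the TIMP genes (right) in each of the 6 samples, stacked by gene. The MMP bars are mostly Mmp2 and Mmp14, and the Timp3 band is thinner in the 3 neomycin samples, at 28.9%, 30.1% and 27.1% of the bar, than in the 3 control samples.

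The 9 members without a test were Adamts18, Mmp10, Mmp13, Mmp1a, Mmp1b, Mmp20, Mmp21, Mmp27 and Mmp7. Their highest count in any sample was 23, and 1 of them, Mmp1b, was at or under 3 counts in every sample. At this depth differences in them were not detectable.

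Genes that act with the members were read from 6 lists. Of the 6 tested hyalectans and link proteins, the proteoglycans that ADAMTS enzymes cut and the proteins that tie them to hyaluronan, 1 was called lower and none higher, with a median log2 fold change of -0.29. It was Vcan, versican, at 22.7, 27.1 and 22.0 CPM in control and 11.4, 12.8 and 12.0 CPM in neomycin samples (log2 fold change -0.99, SE 0.11, adjusted p = 5.78e-05). The groups were far apart.

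Of the 14 tested other protease inhibitors and MMP regulators, 3 were called lower and none higher (median -0.05). By the adjusted p alone 5 passed lower and 2 higher. The 2 higher were Spock1, at a log2 fold change of 0.40 (adjusted p = 0.0109), and Pcsk6, at 0.35 (adjusted p = 0.0246). Tfpi2, a matrix-bound inhibitor of plasmin, was at 3.78, 13.8 and 10.5 CPM in control and 1.73, 3.46 and 3.78 CPM in neomycin samples (log2 fold change -1.63, SE 0.39, adjusted p = 0.00852). Control 1 and neomycin 3 met at 3.78 CPM. Spock2, a testican proteoglycan, fell by 0.72 on the log2 scale (adjusted p = 0.0002) and Thbs2, thrombospondin 2, which helps to clear MMP2, fell by 0.70 (adjusted p = 0.000792).

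In the plasminogen list, whose protease plasmin activates several pro-MMPs, 7 genes were tested, with a median log2 fold change of -0.09. Plaur, the urokinase receptor, fell from 7.38, 11.2 and 8.31 CPM to 4.14, 6.07 and 6.14 CPM (log2 fold change -0.71, SE 0.19, adjusted p = 0.0151). Plgrkt, a plasminogen receptor, rose from 16.4, 15.6 and 15.5 CPM to 22.4, 23.7 and 27.0 CPM (log2 fold change 0.62, SE 0.10, adjusted p = 0.00078). The groups did not overlap in either gene.

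Of 11 tested genes of the ADAM family 1 was called, and the list's median was -0.07. It was Adam12, lower at a log2 fold change of -1.10 (SE 0.35, adjusted p = 0.0353), from 1.15 ± 0.289 to 0.536 ± 0.0929 CPM (SD, n = 3 each). None of the 4 tested astacin C-proteinases and their enhancers was called (median 0.22), although the enhancers Pcolce, at 0.22 (adjusted p = 0.0480), and Pcolce2, at 0.33 (adjusted p = 0.0152), both rose by less than 1.5-fold. None of the 6 tested fibrillins and latent TGF-beta binding proteins was called (median -0.06). Over all tested genes 8.84% were called, and these lists are too short for their shares to be read against it.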

How the data were processed

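RNA-seq libraries of 3 control and 3 neomycin explant samples were grouped by their treatment labels. Per the labels and the methods, the authors called bases with CASAVA 1.8, trimmed reads with Trimmomatic 0.23, aligned them to mm10 with HISAT2 and counted them per gene with HTSeq. The deposited values were raw counts, whole numbers without normalization, in a table in which every column belonged to a mapped sample. The strand setting of the counting is not given in the sources used here, so reads of genes that overlap on opposite strands could not be told apart, and reads shared by near-identical copies could be lost.

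Counts were scaled by TMM, filtered with filterByExpr and tested with edgeR 4.0.16 in R 4.3.3 (quasi-likelihood test, Benjamini-Hochberg adjustment over 15988 genes, no covariate). SE values are the log2 fold change divided by the root of F. Levels are CPM from TMM-scaled libraries, and CPM per kb used the exon length of GENCODE M21 (GRCm38), which held all 51 members. A prior count of 2 entered only the log2 CPM used for the length trend and the check of replicate numbers. Total counts of 50471116 to 66068108 per sample set the precision. Replicates differed by more than sampling noise (mean chi-square per gene 13.4 to 44.9), so none was the same library sequenced again. Separate preparations from the same pool could also differ this much, so they are not excluded. A group with 3 counts or fewer per library was taken as at the floor, which covers counting error only.

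Members named were all called members, Timp1 to Timp4, the 5 highest per kb, those past the adjusted p alone, and the called genes of the 6 pathway lists. Some pathway genes past the adjusted p alone were named too. The members and lists were chosen with earlier results of these data known. Alternatives were DESeq2 1.42.0, limma-voom (limma 3.58.1), 3 other scalings, 2 other filters, 2 stricter thresholds, the replicate number as a block, a correction of each sample's trend on exon length (lowess, span 0.3; 99.2% of tested genes had a length) alone and with the block, and each sample left out in turn. In simulated counts of 15846 genes, with the spread estimated from these samples, 182 of 198 changed genes were recovered with 8 false calls. The planted changes were 2-fold or larger, so recovery of smaller ones, such as those of Adamts15 and Mmp28, was not tested. Protein sequences were not searched. Some results on genes outside the members are not reported here. Figures were drawn with matplotlib 3.10.9.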

Additional observations from a re-analysis of the deposited data

How the results depend on the processing

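The count of 7 called members was 7 or 8 under every other test, scaling, filter, block or length correction, and 4 at an adjusted p under 0.01 or a fold change over 2 (3 lower and 1 higher in each). Of all genes 6.22% were called at the stricter adjusted p and 4.29% at the stricter fold change. With 1 sample left out the count called ran from 4 to 7, with 3 to 6 lower, while 6.41% to 10.3% of all genes were called. The count past the adjusted p alone, 13, ran from 7 (without control 2 or without neomycin 2) to 13. Of all genes 15.9% passed without control 2 and 15.6% without neomycin 2, against 29.0% in the main fit. The length correction lost Adamts15 and gained Adamts19, giving 2 higher, alone or with the replicate block. With the length correction alone 17 members passed the adjusted p, where 23.5% of all genes passed. Adamts2, Adamts10, Adamts16 and Mmp16 newly passed, all higher, Timp1 newly passed, lower, and Mmp11 no longer passed. Adamts16 (0.34, adjusted p = 0.0621 in the main fit) also passed, higher, in several other fits, among them DESeq2 and the replicate block. Adamts1 was also called with total counts and without neomycin 2. Mmp24, Mmp12 and Adamts4 stayed called in all 16 fits. Of 287 other values for 18 named members, 261 kept their direction and their side of an adjusted p of 0.05, 20 no longer passed it, 4 newly passed it and 2 reversed: Mmp14 with total counts (-0.0032), which moved the median of all genes to -0.07, and Timp1 (0.0491 without control 2; -0.30 to 0.0491 over samples left out). The cause was not tested.

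Replicate numbers were not taken as pairs, as same-numbered samples deviated together at r = 0.165, 0.0264 and 0.0949, and control 2 was closest to neomycin 3 (0.0325). With the number as a replicate block, 8 members were called (1 higher, 7 lower, with Adamts12 added) and 18 passed the adjusted p. Of all genes 9.16% were called and 37.6% passed with the block, against 8.84% and 29.0% in the main fit. With the block and the length correction together, 7 members were called and 20 passed, where 7.56% of all genes were called and 29.3% passed. Depth limits the 9 untested members and Timp4.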

Other observations

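Markers of cell types that could carry the members differed between the groups as follows. Of 10 endothelium markers 7 were called lower (median log2 fold change -1.68), among them Pecam1, from 9.78 ± 2.79 to 1.49 ± 0.470 CPM, and Cdh5, from 8.81 ± 0.807 to 2.12 ± 0.213 CPM (SD, n = 3 each). The summed endothelium level was 309 to 352 CPM in control and 298 to 351 CPM in neomycin samples, since Emcn, at 252 ± 12.1 and 273 ± 26.2 CPM, made up most of it. Of 10 pericyte and smooth muscle markers 3 were called lower (median -0.42, summed 244 to 285 against 209 to 223 CPM). Of 12 supporting cell markers 1 was called higher and 2 lower (median 0.16, summed 2905 to 3281 against 3643 to 3760 CPM).

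The mesenchyme markers, with 1 of 10 called in each direction, had a median of -0.08 on the log2 scale and a summed level of 6353 to 6975 CPM in control and 6657 to 6888 CPM in neomycin samples. The 10 Schwann cell and glia markers, with 1 called in each direction, had a median of -0.07 and summed to 629 to 699 and 649 to 669 CPM. Of 6 tested cartilage and bone markers 2 were called higher (median 0.31, summed 6280 to 7615 against 7257 to 7558 CPM). The part of these cell types in the members' changes was not tested.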
